A study of Mus musculus with 12 samples.

Results

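The genes described here are 42 genes of DNA replication, taken by name out of 23390 genes joined over 12 RNA-seq libraries of mouse bone marrow progenitors. By role they comprise 5 genes of origin licensing, 12 of the replicative helicase, 8 of the DNA polymerases and primase, and 10 of the clamp, its loader, the single-strand binding protein and flap maturation. A further 4 make nucleotides and 3 drive entry into S phase. All 42 were listed in every file, had at least 1 count in every library and passed the filter on low counts in every comparison.

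The libraries came from C57BL/6 mice homozygous for deletion of the enhancer located 42 kb downstream of Cebpa (labelled Cebpa +42kb enhancer -/-, here enhancer-null) or from wild-type mice. Cebpa encodes a transcription factor that directs progenitors toward the granulocyte and monocyte lineages. Common myeloid progenitors (CMP) and LSK cells (lineage-negative, Sca-1-positive, Kit-positive, the fraction that holds the stem cells, labelled hematopoietic stem cells) were sorted from each genotype. This gave 4 groups of 3 libraries: enhancer-null CMP (numbered 1, 2 and 7 in the labels), wild-type CMP (1, 6 and 8), enhancer-null LSK (1, 2 and 7) and wild-type LSK (1, 6 and 8), and values below keep that order of numbers. The labels name neither the age of the mice nor a Cre, and do not say that replicates came from separate animals, so p-values measure the spread between these libraries.

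DNA replication starts at origins bound by the origin recognition complex, where Cdc6 and Cdt1 load the ring of MCM2 to MCM7 while cells are in G1. Cyclin E and its kinase then help to fire the origins, Cdc45 and GINS join the ring to form the active helicase, and polymerases alpha, delta and epsilon copy the strands behind it. Most of these genes are transcribed at the G1 to S boundary under E2F factors, so their summed mRNA is widely used as a sign of cycling cells. Among hematopoietic cells, stem cells are known to cycle rarely and committed progenitors often.

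The total of gene counts ran from 8976999 to 20122669 in the libraries of enhancer-null CMP, 15470260 to 32770938 in wild-type CMP, 6170491 to 49149674 in those of enhancer-null LSK, and 14753266 to 34080293 in those of wild-type LSK. Cebpa had 0, 3 and 0 counts in enhancer-null CMP, against 544, 270 and 463 in wild-type CMP, and 1, 0 and 15 in enhancer-null LSK, against 226, 118 and 39 in wild-type LSK. Ly6a, which encodes Sca-1, measured at most 12.8 CPM (counts scaled by TMM to a library of 1000000 gene counts) in any CMP library and at least 134 CPM in every LSK library, and Kit was present in all 12. Libraries with the same number had the same sex in both cell types: 1 and 2 of the enhancer-null and 1 of the wild-type libraries were male and the others female. Of 9188 genes that average 10 CPM or more over the 12 libraries, the share without a single count was 3.57% in enhancer-null CMP 1, 1.55% in enhancer-null CMP 7, 1.82% in wild-type LSK 6 and under 1% elsewhere. These 3 libraries also hold the lowest values of several replication genes, given with those genes below.

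Promoter windows are shown because many of these genes are textbook E2F targets. A window from RefSeq (GRCm38.p6, 250 bases before to 50 after a start) was matched by symbol for 34 of the 42 genes. Rfc2, Mcm4, Gins2, Prim2, Pole, Ccne2, Gins1 and Gins4 had none. The 4 E2F letter strings TTTCCCGC, TTTGGCGC, TTTCGCGC and TTTGCCGC were searched on both strands, where they can overlap each other. At least 1 was found for 13 of the 34 genes (38.2%), against 4.83% of the 8971 genes tested in CMP that have a window. Among all 27025 genes of the table the share was 2.61%. On 2 lists described further on, it was 43.2% of 37 other replication genes and 3.57% of 28 genes of G2 and mitosis. With only the bases before the start searched, 8 of the 34 genes held one (23.5%, against 4.0% of the genes tested in CMP). The share of the other replication genes was then 35.1%. Of the 9 genes that rose in wild-type CMP relative to wild-type LSK, as given further on, Cdt1 and Mcm7 held an E2F string. Orc2, Fen1, Rrm1, Rrm2, Tk1 and Ccne1 held none, and Ccne2 had no window. Rfc3, the 1 gene with a negative difference in that comparison, held a match. Other letter strings and bases outside the windows were not searched, so a gene without a match may still hold an E2F site. Whether E2F factors bear on these differences was not tested. The letters CCAAT, on either strand, were found for 61.8% of the 34 genes, against 43.4% of the genes tested in CMP. They were found for 48.6% of the other replication genes and 85.7% of the genes of G2 and mitosis. The windows of Mcm5 and Mcm6 (helicase ring), Orc1 (origin recognition) and Mcm7 (helicase ring) are printed below for 120 bases each, 5′ to 3′ along the gene's strand, with the E2F letters in capitals. These genes were taken from those with a match before the start, the named gene of each role first and then by p in CMP, enhancer-null over wild type. In the main edgeR fits, Mcm7 alone of them passed in wild-type CMP over LSK, and none passed between genotypes in CMP.
Mcm5 (chr8:75109326-75109445, plus strand): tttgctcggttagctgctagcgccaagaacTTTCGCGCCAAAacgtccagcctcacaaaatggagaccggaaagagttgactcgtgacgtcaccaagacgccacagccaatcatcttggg
Mcm6 (chr1:128359726-128359845, minus strand): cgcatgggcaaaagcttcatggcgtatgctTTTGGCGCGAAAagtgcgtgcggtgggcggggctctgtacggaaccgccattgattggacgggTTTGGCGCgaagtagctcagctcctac
Orc1 (chr4:108579334-108579453, plus strand): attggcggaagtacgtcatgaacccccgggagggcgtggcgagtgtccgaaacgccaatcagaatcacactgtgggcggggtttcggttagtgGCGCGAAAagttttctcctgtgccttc
Mcm7 (chr5:138171959-138172078, minus strand): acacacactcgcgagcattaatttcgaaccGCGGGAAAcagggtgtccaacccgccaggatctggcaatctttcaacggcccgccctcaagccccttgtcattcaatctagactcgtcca
In Mcm5 the strings TTTCGCGC (from position −153 relative to the start) and GCGCCAAA (from −149, the reverse complement of TTTGGCGC) share 4 bases, so the capitals form 1 run. In Mcm6 TTTGGCGC (from −110) overlaps GCGCGAAA (from −106) in the same way, and a second TTTGGCGC begins at −47. In Orc1 GCGCGAAA begins at −27, and in Mcm7 GCGGGAAA begins at −165. A match describes these letters only; no binding was measured here.

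Per length of transcript the helicase ring and the clamp led the 42 genes. Mcm6 was highest, with 301 ± 21.5 CPM per kilobase in enhancer-null CMP, 385 ± 50.3 in wild-type CMP, 310.4 ± 94.97 in enhancer-null LSK and 271 ± 13.6 in wild-type LSK (SD, n = 3 each). Pcna, the sliding clamp that tethers the polymerases, ranked next with a mean over the 4 groups of 233 CPM per kilobase, followed by Mcm3, Mcm7 and Rrm2. The lowest were Pole, the catalytic subunit of polymerase epsilon, at 8.10, and Orc1, the largest subunit of the origin recognition complex, at 8.34 CPM per kilobase. Although the 6 MCM proteins act in a ring with 1 copy of each, Mcm6 made up 35.6% ± 2.42 of their summed per-length level in enhancer-null CMP, against 32.8% ± 0.489 in wild-type CMP (SD, n = 3 each). In LSK its share was 42.0% ± 4.30 in enhancer-null and 40.0% ± 4.31 in wild-type cells, and each other ring gene held between 8.86% and 16.9% as a group mean. Lengths are those of 1 principal transcript per gene, so a share also carries whatever that choice leaves out.

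**Figure D1:**
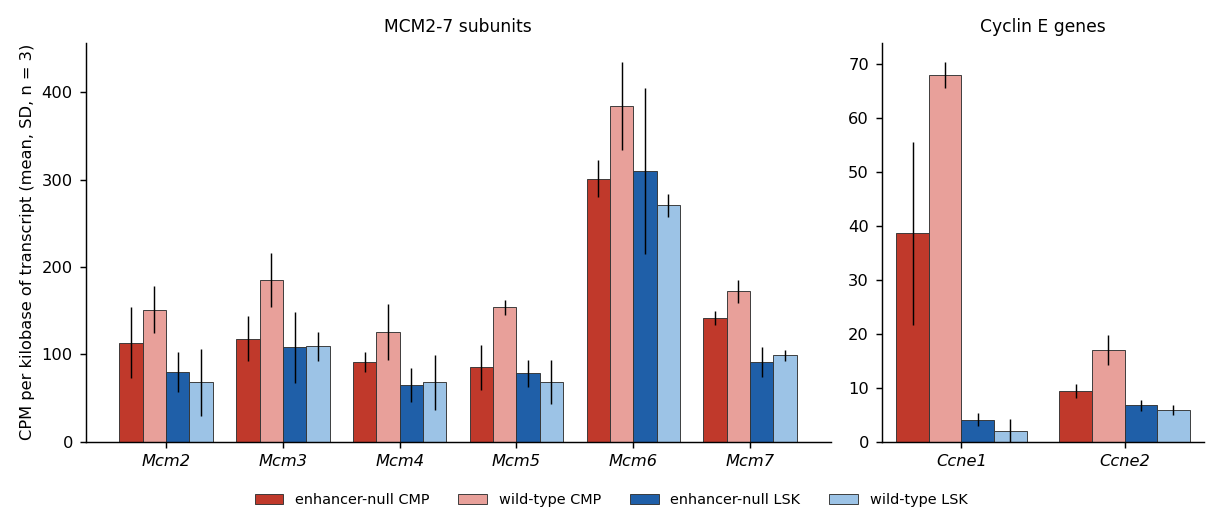
Mean level in CPM per kilobase of principal transcript (bars; error bars SD, n = 3 libraries) of the 6 MCM2-7 genes and the 2 cyclin E genes in the 4 groups, with a separate vertical scale for each panel. Mcm6 stands above the other ring genes in all 4 groups, and Ccne1 exceeds Ccne2 in both CMP groups and lies below it in both LSK groups.

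Within CMP, replication genes lay lower in enhancer-null than in wild-type libraries, but none passed the adjusted test. Of the 42 genes 39 had a negative log2 fold change (enhancer-null over wild type), beside 51.2% of all genes, with a median of −0.64 beside −0.02 for all 11726 genes tested; the exceptions were Gins4, Prim1 and Rfc2. By edgeR's quasi-likelihood test 0 of 42 passed, beside 0.588% of all genes (0.111% lower). At an unadjusted p under 0.05, 14 were lower, beside 5.07% of all genes, and 0 higher, beside 7.54%. DESeq2 called 5 lower (Mcm5, Pold2, Pcna, Fen1 and Lig1), beside 1.91%. The 3 enhancer-null libraries lay below all 3 wild-type libraries for 21 genes, beside 12.9% of all genes, and above them for none, beside 10.8%. Without enhancer-null CMP 1, the library with the most genes at 0 counts, 25 genes were separated in this way, beside 17.6%, and the median was −0.43. These libraries are bulk RNA, in which fewer cycling cells and less of these mRNAs per cell cannot be told apart.

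In LSK the median of the replication genes lay nearer to 0. The median log2 fold change of the 42 genes was −0.16, enhancer-null over wild type, beside −0.01 for all 11623 genes tested, with 27 negative, beside 50.7% of all genes. None passed edgeR's test, beside 0.103% of all genes; 3 were lower at an unadjusted p under 0.05 (Cdc6, Pcna and Rpa2), beside 3.86%, and 0 higher, beside 4.05%. DESeq2 called 0, beside 1.16% of all genes in each direction. The enhancer-null libraries lay below all wild-type libraries for 7 genes (Orc6, Cdc6, Gins2, Pold2, Pcna, Rpa2 and Rrm2), beside 10.4% of all genes, and above them for Orc1 alone, beside 8.64%. Without enhancer-null LSK 1, the lowest of its group for 33 of the 42 genes (beside 43.3% of all genes), the median was 0.01 with 20 genes negative. It was −0.28 without enhancer-null LSK 7, −0.26 without enhancer-null LSK 2, −0.26 without wild-type LSK 6 (33 genes negative), −0.15 without wild-type LSK 1 and −0.06 without wild-type LSK 8. The count of genes lower without overlap was 14 without wild-type LSK 6, beside 17.3% of all genes, and 12 without enhancer-null LSK 7, beside 16.2%. It was 8 or 9 without any other single library, beside 13.6% to 15.6% of all genes. The count higher without overlap was 1 to 4 without 1 library, beside 12.7% to 15.0%, and 4 was reached without enhancer-null LSK 1, beside 13.1%.

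**Figure D2:**
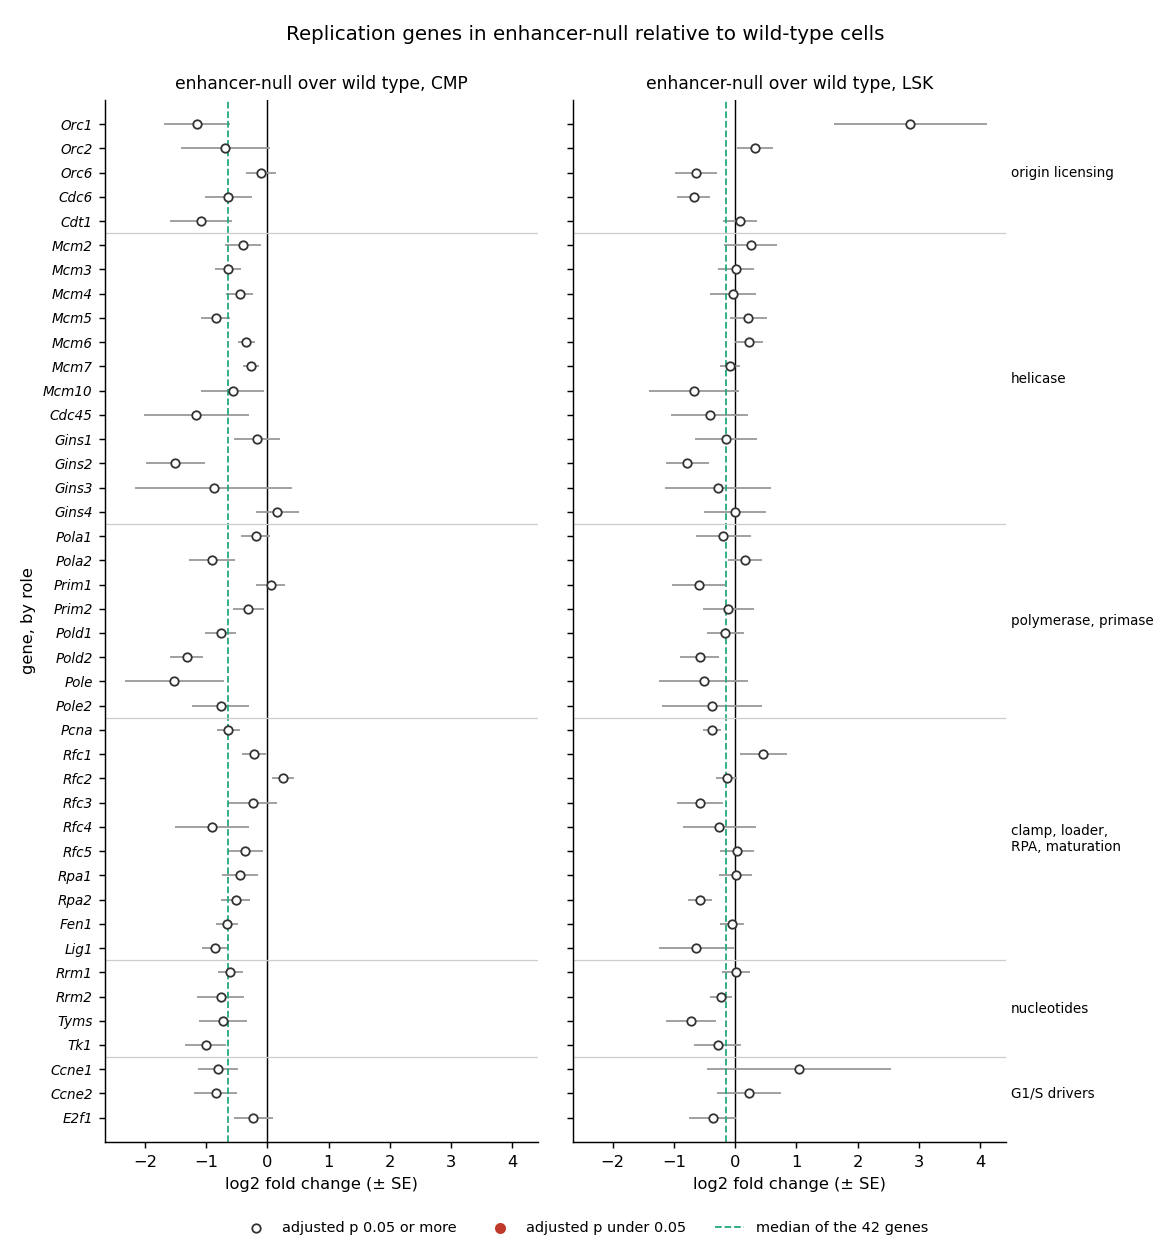
Log2 fold change with its SE (points and bars) of each of the 42 genes, enhancer-null over wild type, in CMP (left) and LSK (right) on 1 scale, grouped by role; the dashed line is the median of the 42 genes. In CMP 39 of 42 points lie below 0 and the median is −0.64, in LSK 27 lie below 0 and the median is −0.16, and no point passed edgeR's adjusted test.

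The difference between the 2 genotype effects was tested in 1 fit over the 12 libraries, as the effect in CMP minus the effect in LSK. For the 42 genes its median log2 value was −0.52, beside 0.01 for all 12688 genes tested, with 30 negative, beside 49.4% of all genes. None passed edgeR's test, beside 0.292% of all genes; 3 had an unadjusted p under 0.05 (Orc1, Mcm5 and Fen1, all negative), beside 3.1% of all genes that were negative at that p, and DESeq2 called 0, beside 0.914% higher and 0.552% lower. The median was −0.29 without enhancer-null CMP 1, −0.31 without enhancer-null LSK 7, −0.23 without wild-type LSK 6 and between −0.39 and −0.75 without any other single library. The CMP and LSK comparisons share no library, but both cell type comparisons use the same CMP and LSK libraries as the genotype comparisons, so the 4 are not independent of each other.

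Between the cell types, replication genes tended to be higher in CMP than in LSK. In enhancer-null cells 36 of the 42 genes had a positive log2 fold change (CMP over LSK), beside 49.4% of all genes, with a median of 0.46 beside −0.01 for all 11270 genes tested. None passed edgeR's test, beside 0% of all genes; 7 were higher at an unadjusted p under 0.05, beside 3.9%, and DESeq2 called 1 higher (Ccne1), beside 0.923%. The CMP libraries lay above all LSK libraries for 5 genes (Orc6, Mcm7, Prim1, Fen1 and Ccne1), beside 7.58% of all genes. Without enhancer-null CMP 1 that count was 21, beside 13.9%, and the median was 0.55. The count was 7 without enhancer-null CMP 2, CMP 7, LSK 1 or LSK 2, beside 13.4%, 12.7%, 10.5% and 10.7% of all genes, and 11 without LSK 7, beside 11.7%. The median was 0.26 without enhancer-null CMP 2, 0.26 without LSK 1, 0.37 without CMP 7, 0.51 without LSK 2 and 0.59 without LSK 7.

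In wild-type cells 9 of the 42 genes rose in CMP relative to LSK. A total of 41 had a positive log2 fold change, beside 49.7% of all genes, with a median of 0.86 beside −0.01 for all 12031 genes tested. With edgeR's quasi-likelihood test, adjusted by Benjamini-Hochberg over all genes, 9 rose and 0 fell, beside 4.23% of all genes past the test (2.17% higher and 2.06% lower). They were Orc2, Cdt1, Mcm7, Fen1, Rrm1, Rrm2, Tk1, Ccne1 and Ccne2. A further 17 genes were higher at an unadjusted p under 0.05, giving 26 in all beside 10.4% of all genes, and DESeq2 called 19 higher beside 6.05%. The 3 CMP libraries lay above all 3 LSK libraries for 30 of the 42 genes, beside 15.9% of all genes, and below them for none, beside 17.4%.

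Leaving out single libraries moved the count of replication genes past the test, as it moved that of all genes. Without wild-type LSK 6, 14 of the 42 passed, the 9 above with Orc1, Cdc6, Mcm3, Mcm5 and Pold2, while all genes past the test were 880, against 509 with every library. Without wild-type CMP 1, CMP 6, CMP 8, LSK 1 or LSK 8 in turn, 2, 1, 1, 2 and 3 of the 42 passed, while all genes past the test were 101, 66, 56, 166 and 176. Rrm2 passed in all 6 of these fits, Fen1 in 4, Rrm1 in 2 and each of the other 6 genes only in the fit without wild-type LSK 6. With a replicate block on the shared numbers, 3 of the 42 passed (Fen1, Rrm1 and Rrm2) and 132 of all genes. The median of the 42 genes lay between 0.71 and 0.94 in the fits that left out 1 library.

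**Figure D3:**
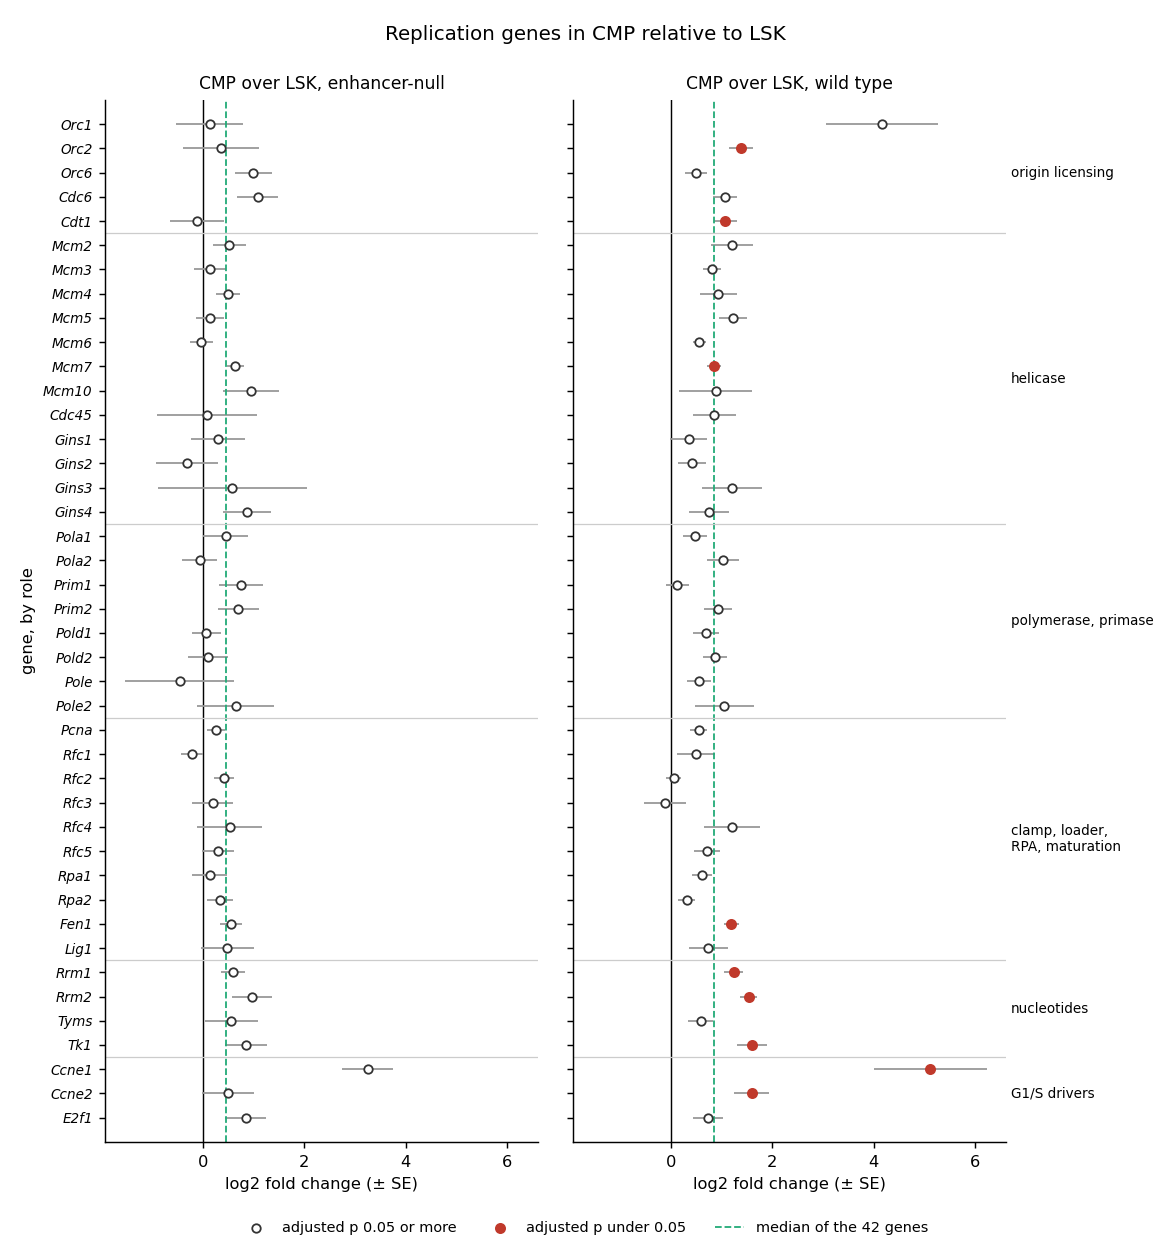
Log2 fold change with its SE (points and bars) of each of the 42 genes, CMP over LSK, in enhancer-null cells (left) and wild-type cells (right) on 1 scale, grouped by role; filled points passed edgeR's adjusted test and the dashed line is the median of the 42 genes. The median is 0.46 in enhancer-null and 0.86 in wild-type cells, and 9 genes are filled, all of them in wild-type cells.

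Summed over the 42 genes, the level was 6689.7 ± 1201 CPM in enhancer-null CMP, against 9757 ± 559 CPM in wild-type CMP, and 5275 ± 1187 CPM in enhancer-null LSK, against 5629 ± 807 CPM in wild-type LSK (SD, n = 3 each). Group means were highest in enhancer-null CMP for 3 of the 42 genes and in wild-type CMP for 38, and lowest in enhancer-null LSK for 29 and in wild-type LSK for 10.

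The 5 origin licensing genes had a median log2 fold change of −0.69 in CMP and 0.08 in LSK, enhancer-null over wild type. Between CMP and LSK their median was 0.35 in enhancer-null and 1.08 in wild-type cells. In wild-type cells all 5 lay higher in CMP without overlap, beside 15.9% of all genes. Orc1 encodes the largest subunit of the origin recognition complex. Orc1 measured 35.8, 23.6 and 11.5 CPM in enhancer-null CMP, against 35.7, 45.7 and 75.8 CPM in wild-type CMP. In LSK, Orc1 measured 13.98, 30.8 and 19.8 CPM in enhancer-null and 7.21, 0.209 and 1.64 CPM in wild-type libraries, and wild-type LSK 6 and 8 held 3 and 26 counts. Orc1 was thus lowest in wild-type LSK, below all libraries of the other 3 groups. CMP over LSK, it had a log2 fold change of 0.13 (SE 0.66, adjusted p = 0.993) in enhancer-null cells, which overlap, and a log2 fold change of 4.17 (SE 1.11, adjusted p = 0.0863) in wild-type cells, which do not. In LSK, enhancer-null over wild type, its log2 fold change was 2.86 (SE 1.25, adjusted p = 0.634). The difference between its genotype effects was −3.97 on the log2 scale (SE 1.32, adjusted p = 0.395), with a negative sign in CMP (−1.15) and a positive one in LSK. Over the 19 alternatives that difference ran from −5.67 to −3.43. None of these Orc1 comparisons passed the adjusted test in the main edgeR fits. In wild-type CMP over LSK, Orc1 passed edgeR's test in 1 fit over the 12 libraries (adjusted p = 0.0429) and without wild-type LSK 6 (adjusted p = 0.0243). DESeq2 also called it there (adjusted p = 0.000332).

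Orc2, a core subunit of the same complex, measured 13.5, 177 and 86.8 CPM in enhancer-null CMP, against 159.6, 136 and 154 CPM in wild-type CMP. In LSK, Orc2 measured 63.4, 89.3 and 67.6 CPM in enhancer-null and 70.1, 45.4 and 63.8 CPM in wild-type libraries. Enhancer-null CMP thus had libraries both below and above the enhancer-null LSK range (log2 fold change 0.35, SE 0.75, adjusted p = 0.978). In wild-type cells Orc2 rose in CMP relative to LSK (log2 fold change 1.39, SE 0.23, adjusted p = 0.0218), with no overlap. Its genotype effects in CMP and LSK differed by −0.98 on the log2 scale (SE 0.83, adjusted p = 0.880). Orc6 measured 107, 80.7 and 78.3 CPM in enhancer-null CMP, against 106, 90.9 and 91.4 CPM in wild-type CMP, and 48.7, 27.0 and 58.3 CPM in enhancer-null LSK, against 64.1, 69.1 and 79.5 CPM in wild-type LSK. Both CMP groups lay above their LSK groups without overlap, with a log2 difference of 0.99 in enhancer-null cells (SE 0.36, adjusted p = 0.622) and 0.49 in wild-type cells (SE 0.22, adjusted p = 0.251). Vps35, on the opposite strand, overlaps exons of Orc6 and averaged 6026 counts a library, against 1536 for Orc6.

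Cdt1 and Cdc6 load the helicase ring onto the bound origin. Cdt1 measured 30.3, 140.0 and 122 CPM in enhancer-null CMP, against 187, 213 and 225 CPM in wild-type CMP, without overlap (log2 fold change −1.08, SE 0.50, adjusted p = 0.442). In LSK, Cdt1 measured 80.3, 126 and 113 CPM in enhancer-null and 111, 75.1 and 122 CPM in wild-type libraries, which overlap. Between the cell types its libraries overlap in enhancer-null mice (log2 fold change −0.12, SE 0.53, adjusted p = 0.990). In wild-type mice Cdt1 rose in CMP relative to LSK (log2 fold change 1.08, SE 0.22, adjusted p = 0.0429). Its genotype effects in CMP and LSK differed by −1.13 on the log2 scale (SE 0.60, adjusted p = 0.725). Cdc6 measured 60.5, 155 and 176 CPM in enhancer-null CMP, against 175, 228 and 211 CPM in wild-type CMP. In LSK, Cdc6 measured 54.8, 63.9 and 68.2 CPM in enhancer-null and 77.4, 125 and 102 CPM in wild-type libraries, the enhancer-null ones all being lower (log2 fold change −0.68, SE 0.27, adjusted p = 0.596). Enhancer-null CMP 1 held the lowest value of its group for Orc2, Cdc6 and Cdt1 and the highest for Orc1 and Orc6.

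**Figure D4:**
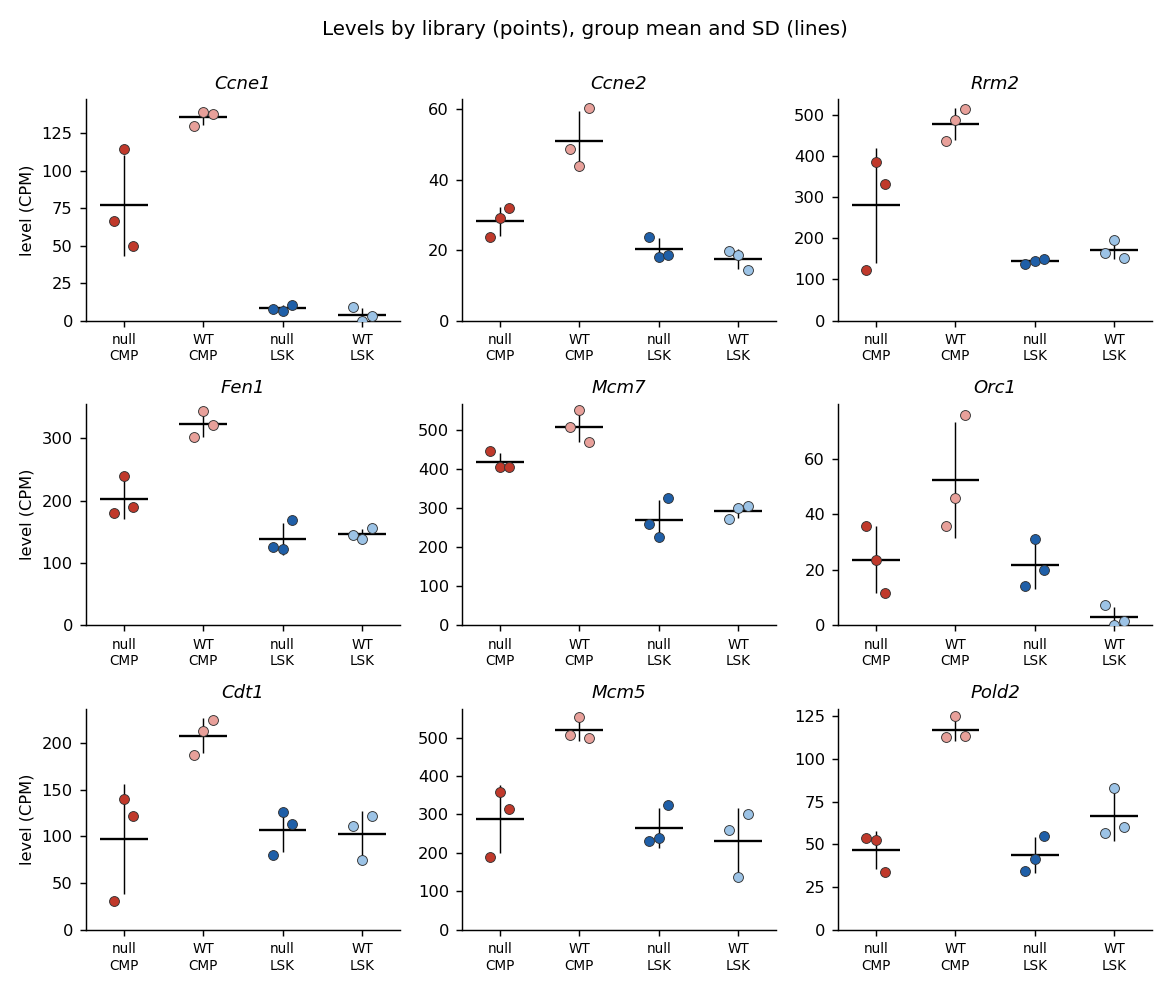
Level in CPM (points, 1 per library) with the group mean and SD (lines, n = 3) of 9 replication genes in enhancer-null CMP, wild-type CMP, enhancer-null LSK and wild-type LSK; each panel has its own linear scale from 0. Ccne1 lies between 49.8 and 139 CPM in CMP libraries and at or below 10.7 CPM in LSK libraries, and the enhancer-null CMP libraries lie below the wild-type ones in every panel shown except that of Orc1.

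Of the 12 helicase genes, Mcm7 alone passed the adjusted test in the main edgeR fits, and in 1 comparison. The median log2 fold change of the 12 was −0.51 in CMP and −0.06 in LSK, enhancer-null over wild type. CMP over LSK it was 0.40 in enhancer-null and 0.86 in wild-type cells. Mcm7, a subunit of the MCM2-7 ring, measured 446, 406 and 405 CPM in enhancer-null CMP, against 507, 551 and 471 CPM in wild-type CMP. In LSK, Mcm7 measured 259.8, 226 and 326 CPM in enhancer-null and 273, 299 and 306 CPM in wild-type libraries. The CMP libraries lay above all LSK libraries in both genotypes. In enhancer-null cells the difference did not pass (log2 fold change 0.64, SE 0.17, adjusted p = 0.444). In wild-type cells Mcm7 rose (log2 fold change 0.85, SE 0.13, adjusted p = 0.0189). Its genotype effects in CMP and LSK differed by −0.15 on the log2 scale (SE 0.21, adjusted p = 0.954). Mcm5, another ring subunit, measured 189, 359 and 315 CPM in enhancer-null CMP, against 507, 555 and 499.7 CPM in wild-type CMP. These groups do not overlap (log2 fold change −0.84, SE 0.24, adjusted p = 0.217), and Mcm5 passed with DESeq2 (adjusted p = 0.0157) and with no filter on low counts (adjusted p = 0.0404). Over the 13 alternatives its adjusted p ran from 0.0157 to 0.564. In LSK, Mcm5 measured 231, 238 and 324 CPM in enhancer-null and 259, 137 and 300.2 CPM in wild-type libraries, which overlap. The difference between its genotype effects was −1.03 (SE 0.40, adjusted p = 0.533). In wild-type CMP over LSK, edgeR gave Mcm5 a log2 fold change of 1.22 (SE 0.27, adjusted p = 0.0508). DESeq2 called it there (adjusted p = 0.000271).

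None of the other 4 ring genes passed the adjusted test in the main edgeR fits. Mcm2 averaged 382 ± 138 CPM in enhancer-null CMP, against 509 ± 90.5 CPM in wild-type CMP, and 269 ± 76.0 CPM in enhancer-null LSK, against 229.6 ± 129 CPM in wild-type LSK (SD, n = 3 each). For Mcm3, Mcm4 and Mcm6 the log2 difference between wild-type CMP and LSK was 0.82, 0.94 and 0.56, with edgeR adjusted p values of 0.0514, 0.198 and 0.0569. In that comparison DESeq2 called Mcm2, Mcm3 and Mcm6 (adjusted p = 0.0186, 0.00155 and 0.00401). There Mcm3 also passed edgeR's test with no filter on low counts (adjusted p = 0.0241) and without wild-type LSK 6 (adjusted p = 0.0464). Mcm3 and Mcm6, with Mcm5 and Mcm7, lay lower in all enhancer-null CMP libraries than in any wild-type one, and Mcm2 and Mcm4 overlapped.

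Cdc45 and the 4 GINS genes complete the active helicase, and Mcm10 helps to activate it. Gins2 measured 21.5, 34.2 and 9.96 CPM in enhancer-null CMP, against 66.2, 63.7 and 57.6 CPM in wild-type CMP. In LSK, Gins2 measured 24.4, 25.2 and 32.9 CPM in enhancer-null and 38.5, 47.5 and 58.7 CPM in wild-type libraries. It was thus lower in enhancer-null than in wild-type libraries of both cell types without overlap, with a log2 fold change of −1.51 (SE 0.48, adjusted p = 0.264) in CMP and a log2 fold change of −0.78 (SE 0.35, adjusted p = 0.642) in LSK; Gse1, on the opposite strand, overlaps its exons. Cdc45 measured 3.23, 58.4 and 63.6 CPM in enhancer-null CMP, against 105, 106 and 72.3 CPM in wild-type CMP, and Gins3 measured 29.6, 32.0 and 0.122 CPM in enhancer-null CMP, against 44.1, 37.5 and 32.0 CPM in wild-type CMP. The lowest of these rest on 28 counts of Cdc45 in enhancer-null CMP 1 and 2 counts of Gins3 in enhancer-null CMP 7, which is under the floor of 3 counts used here for a gene to count as detected. The floor covers counting error only. Gins4 was 1 of the 3 genes with a positive difference between genotypes in CMP (log2 fold change 0.16, SE 0.35, adjusted p = 0.913), and Gins1 and Mcm10 overlapped between genotypes in both cell types.

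None of the 8 polymerase and primase genes passed the adjusted test in the main edgeR fit of any comparison. Pold2 had the smallest p of them between genotypes in CMP. Their median log2 fold change was −0.76 in CMP and −0.29 in LSK, enhancer-null over wild type, and CMP over LSK it was 0.27 in enhancer-null and 0.78 in wild-type cells. Pold2, the accessory subunit of polymerase delta, measured 53.9, 52.3 and 33.5 CPM in enhancer-null CMP, against 113, 125 and 113 CPM in wild-type CMP. In LSK, Pold2 measured 34.3, 41.5 and 55.1 CPM in enhancer-null and 56.5, 82.8 and 59.9 CPM in wild-type libraries. The enhancer-null libraries lay below the wild-type ones in both cell types, with a log2 fold change of −1.32 (SE 0.28, adjusted p = 0.0984) in CMP and a log2 fold change of −0.58 (SE 0.32, adjusted p = 0.696) in LSK. In CMP it had the smallest p of the 42 genes and passed with DESeq2 (adjusted p = 0.00219), with no filter on low counts (0.0390) and in 1 fit over the 12 libraries (0.0440). Over the 13 alternatives its adjusted p ran from 0.00219 to 0.435. Between CMP and LSK its log2 difference was 0.10 in enhancer-null cells, with overlap, and 0.87 in wild-type cells, without overlap (SE 0.23, adjusted p = 0.0899).

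Pold1, the catalytic subunit of polymerase delta, measured 149, 133 and 98.5 CPM in enhancer-null CMP, against 164, 248 and 237 CPM in wild-type CMP, without overlap (log2 fold change −0.76, SE 0.25, adjusted p = 0.270). Pole measured 25.8, 65.5 and 4.13 CPM in enhancer-null CMP, against 76.6, 108 and 89.9 CPM in wild-type CMP, also without overlap but with a wide error (log2 fold change −1.52, SE 0.81, adjusted p = 0.528). Enhancer-null CMP 7 held the lowest Pole value, from 68 counts. Pola2, the accessory subunit of polymerase alpha, measured 56.2, 103 and 86.9 CPM in enhancer-null CMP, against 137, 229 and 98.4 CPM in wild-type CMP. In LSK, Pola2 measured 59.4, 93.5 and 107 CPM in enhancer-null and 86.3, 75.3 and 74.8 CPM in wild-type libraries. Both pairs overlap, and the difference between its genotype effects was −1.03 (SE 0.48, adjusted p = 0.657).

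The primase genes overlapped between genotypes in both cell types. Prim1, which makes the primer, measured 169.9, 112 and 111 CPM in enhancer-null CMP, against 136, 116 and 128 CPM in wild-type CMP (log2 fold change 0.06, SE 0.24, adjusted p = 0.962). Its 95% interval on the log2 scale ran from −0.41 to 0.52. Prim2, the regulatory subunit, measured 59.9, 78.1 and 89.7 CPM in enhancer-null CMP and 25.7, 64.6 and 50.6 CPM in enhancer-null LSK, which overlap (log2 fold change 0.70, SE 0.41, adjusted p = 0.839). Pola1, the catalytic subunit of polymerase alpha, and Pole2, an accessory subunit of polymerase epsilon, overlapped between genotypes in both cell types.

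Among the 10 genes of the clamp, loader, single-strand binding protein and maturation, Fen1 alone passed the adjusted test in the main edgeR fits. Their median log2 fold change was −0.48 in CMP and −0.20 in LSK, enhancer-null over wild type, and CMP over LSK it was 0.32 in enhancer-null and 0.58 in wild-type cells. Fen1, the endonuclease that trims flaps from Okazaki fragments, measured 179.8, 240.1 and 189 CPM in enhancer-null CMP, against 303, 344 and 322 CPM in wild-type CMP. In LSK, Fen1 measured 125, 123 and 169 CPM in enhancer-null and 145.2, 138 and 155 CPM in wild-type libraries. All enhancer-null CMP libraries lay below the wild-type CMP libraries (log2 fold change −0.66, SE 0.18, adjusted p = 0.184) and above the enhancer-null LSK libraries (log2 fold change 0.56, SE 0.22, adjusted p = 0.689). In wild-type cells Fen1 rose in CMP relative to LSK (log2 fold change 1.20, SE 0.15, adjusted p = 0.0103). The difference between its genotype effects was −0.58 (SE 0.25, adjusted p = 0.627).

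Lig1, the ligase that seals the fragments, measured 117, 161 and 113 CPM in enhancer-null CMP, against 212, 269.6 and 231 CPM in wild-type CMP. These groups do not overlap, edgeR gave a log2 fold change of −0.86 (SE 0.21, adjusted p = 0.161), and DESeq2 called it (adjusted p = 0.0118; range over the 13 alternatives 0.0118 to 0.545). Pcna measured 274, 364 and 302 CPM in enhancer-null CMP, against 598, 436 and 440.2 CPM in wild-type CMP, and 230.2, 277 and 281 CPM in enhancer-null LSK, against 364, 321 and 361 CPM in wild-type LSK. It was lower in the enhancer-null libraries of both cell types without overlap, with a log2 difference of −0.64 in CMP (adjusted p = 0.221) and −0.38 in LSK (adjusted p = 0.589). Rpa2, a subunit of the single-strand binding protein RPA, measured 87.5, 119.9 and 143 CPM in enhancer-null CMP, against 178, 184 and 145.2 CPM in wild-type CMP. In LSK, Rpa2 measured 84.3, 92.9 and 102 CPM in enhancer-null and 144, 136 and 144 CPM in wild-type libraries, again without overlap (log2 fold change −0.58, SE 0.19, adjusted p = 0.483).

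The 5 subunits of the clamp loader differed in sign and in overlap. Rfc2 had a positive difference between genotypes in CMP (log2 fold change 0.26, SE 0.18, adjusted p = 0.661) and averaged 241 ± 22.6 CPM in wild-type CMP and 240.4 ± 6.49 CPM in wild-type LSK (SD, n = 3 each). Rfc3 was the 1 gene of the 42 with a negative difference between wild-type CMP and LSK (log2 fold change −0.11, SE 0.41, adjusted p = 0.910). Rfc4 measured 17.5, 119 and 99.4 CPM in enhancer-null CMP, against 140.2, 128 and 177 CPM in wild-type CMP, and Eif4a2, on the opposite strand, overlaps its exons. Lat2 likewise overlaps Rfc2, and Wsb2 overlaps Rfc5. Rfc1, Rfc5 and Rpa1, the large subunit of RPA, overlapped between genotypes in both cell types.

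Of the 4 genes that make nucleotides, 3 rose in wild-type CMP relative to wild-type LSK. Their median log2 fold change was −0.74 in CMP and −0.26 in LSK, enhancer-null over wild type, and CMP over LSK it was 0.72 in enhancer-null and 1.39 in wild-type cells. Rrm2, the small subunit of ribonucleotide reductase that limits its activity in S phase, measured 122, 385 and 332 CPM in enhancer-null CMP, against 436, 486 and 513 CPM in wild-type CMP. In LSK, Rrm2 measured 137, 144 and 151 CPM in enhancer-null and 165, 196 and 152 CPM in wild-type libraries. In enhancer-null cells 2 of the 3 CMP libraries lay well above LSK, and enhancer-null CMP 1 lay below all 3 LSK libraries (log2 fold change 0.97, SE 0.40, adjusted p = 0.699). In wild-type cells Rrm2 rose in CMP relative to LSK (log2 fold change 1.53, SE 0.16, adjusted p = 0.00658). There it was past the test in all 14 alternatives, whose adjusted p reached 0.0499. Its genotype effects in CMP and LSK differed by −0.50 on the log2 scale (SE 0.44, adjusted p = 0.890).

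Rrm1, the large subunit, measured 304, 487 and 387 CPM in enhancer-null CMP, against 524, 595 and 686 CPM in wild-type CMP. In LSK, Rrm1 measured 203, 307 and 277 CPM in enhancer-null and 271, 204 and 320.4 CPM in wild-type libraries. In enhancer-null cells CMP and LSK overlapped (log2 fold change 0.59, SE 0.24, adjusted p = 0.688), and in wild-type cells Rrm1 rose in CMP relative to LSK (log2 fold change 1.24, SE 0.20, adjusted p = 0.0202). The difference between its genotype effects was −0.58 (SE 0.31, adjusted p = 0.728). Tk1, the thymidine kinase of the salvage pathway, measured 39.6, 80.6 and 86.5 CPM in enhancer-null CMP, against 132, 131 and 156 CPM in wild-type CMP. In LSK, Tk1 measured 29.6, 41.1 and 44.8 CPM in enhancer-null and 56.1, 29.5 and 57.9 CPM in wild-type libraries. All enhancer-null CMP libraries lay below the wild-type CMP ones (log2 fold change −1.01, SE 0.33, adjusted p = 0.271). In wild-type cells Tk1 rose in CMP relative to LSK (log2 fold change 1.61, SE 0.30, adjusted p = 0.0300). Its genotype effects in CMP and LSK differed by −0.69 on the log2 scale (SE 0.50, adjusted p = 0.830). Tyms, thymidylate synthase, measured 44.4, 134 and 105 CPM in enhancer-null CMP, against 176, 169 and 129 CPM in wild-type CMP. In LSK, Tyms measured 31.5, 73.6 and 90.0 CPM in enhancer-null and 116, 78.0 and 133 CPM in wild-type libraries, with overlap in both cell types (log2 fold change −0.72, SE 0.42, adjusted p = 0.706 in LSK).

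Of the 3 drivers of S phase entry, both cyclin E genes rose in wild-type CMP, and Ccne1 had the highest log2 fold change between CMP and LSK of the 42 genes in both genotypes. Cyclin E1, its product, activates Cdk2 at the start of S phase. Ccne1 measured 66.7, 115 and 49.8 CPM in enhancer-null CMP, against 130.2, 139 and 138 CPM in wild-type CMP. In LSK, Ccne1 measured 7.53, 6.11 and 10.7 CPM in enhancer-null and 8.99, 0.0698 and 2.96 CPM in wild-type libraries, and wild-type LSK 6 held 1 count. Every CMP library lay above every LSK library in both genotypes. In enhancer-null cells edgeR gave a log2 fold change of 3.25 (SE 0.50, adjusted p = 0.186), and DESeq2 called it with an adjusted p of 4.75e-07 (range over the 14 alternatives 4.75e-07 to 0.707). In wild-type cells Ccne1 rose (log2 fold change 5.11, SE 1.11, adjusted p = 0.0494). Without wild-type LSK 6 the log2 difference there was 4.55 (adjusted p = 0.00320), and over the 14 alternatives the adjusted p ran from 0.00191 to 0.215. All enhancer-null CMP libraries lay below the wild-type CMP ones (log2 fold change −0.81, SE 0.33, adjusted p = 0.371), while the 2 LSK groups overlapped. The genotype effects on Ccne1 in CMP and LSK differed by −1.81 on the log2 scale (SE 1.18, adjusted p = 0.800).

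Ccne2, which encodes the other cyclin E, measured 23.8, 29.0 and 31.9 CPM in enhancer-null CMP, against 48.7, 43.9 and 60.4 CPM in wild-type CMP. In LSK, Ccne2 measured 23.8, 18.0 and 18.8 CPM in enhancer-null and 19.7, 18.6 and 14.3 CPM in wild-type libraries. It rose in wild-type CMP relative to wild-type LSK (log2 fold change 1.60, SE 0.35, adjusted p = 0.0489), and the difference between its genotype effects was −1.04 (adjusted p = 0.750). Per length of transcript Ccne1 made up 78.9% ± 7.95 of the summed cyclin E level in enhancer-null CMP, against 80.1% ± 2.64 in wild-type CMP (SD, n = 3 each). In LSK its share was 37.4% ± 7.68 in enhancer-null and 21.7% ± 20.2 in wild-type libraries, so that Ccne2 had the larger mean share in both LSK groups. E2f1, the transcription factor of many S phase genes, measured 76.2, 53.7 and 114 CPM in enhancer-null CMP, against 95.5, 106 and 86.6 CPM in wild-type CMP. In LSK, E2f1 measured 33.0, 39.8 and 63.5 CPM in enhancer-null and 68.7, 72.1 and 38.5 CPM in wild-type libraries, with overlap in both cell types (log2 fold change −0.37, SE 0.39, adjusted p = 0.855 in LSK).

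On the mm10 build the genes that rose in wild-type CMP were placed by the GENCODE vM21 annotation. Orc2 is at chr1:58462771-58505109, Cdt1 at chr8:122568015-122573554, Mcm7 at chr5:138164583-138172422, Fen1 at chr19:10199132-10204169 and Rrm1 at chr7:102441695-102469771. Rrm2 is at chr12:24708241-24714146, Tk1 at chr11:117815526-117826092, Ccne1 at chr7:38097984-38107534 and Ccne2 at chr4:11191351-11204779. Exons of Orc2, Mcm7, Fen1, Tk1 and Ccne2 overlap a counted gene on the opposite strand (Nif3l1, Ap4m1 and Cops6, Tmem258, Afmid and Ints8), and without a stated strand setting reads there cannot be assigned with certainty.

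Replication genes outside the 42 were read from a separate list. Of its 47 genes, among them checkpoint, chromatin assembly and cyclin A genes, 40 were negative in CMP, enhancer-null over wild type, beside 51.2% of all genes, with a median log2 fold change of −0.57. None passed edgeR's test there, and 5 had an unadjusted p under 0.05, beside 12.6% of all genes in either direction. DESeq2 called 0, beside 3.45% of all genes higher and 1.91% lower. The smallest p was that of Usp1, which removes ubiquitin from PCNA, at 173 ± 61.4 CPM in enhancer-null CMP, against 297 ± 9.47 CPM in wild-type CMP (SD, n = 3 each; log2 fold change −0.77, SE 0.27, adjusted p = 0.292). In LSK 46 were tested, 24 of them negative, beside 50.7% of all genes, with a median of −0.07. None passed edgeR's test, and 4 had an unadjusted p under 0.05, beside 7.92% of all genes. Chtf18, part of an alternative clamp loader, had the smallest p (log2 fold change −1.27, SE 0.46, adjusted p = 0.555). DESeq2 called 0, beside 1.16% of all genes in each direction. For the difference between genotype effects 40 of 47 were negative, beside 49.4% of all genes, with a median of −0.30. None passed edgeR's test, and 0 had an unadjusted p under 0.05, beside 7.63%. DESeq2 called 0, beside 0.914% higher and 0.552% lower. CMP over LSK, the median was 0.16 in enhancer-null cells, where 0 passed edgeR's test. There 3 had an unadjusted p under 0.05, beside 6.92% of all genes. DESeq2 called 0, beside 0.923% higher and 0.896% lower. In wild-type cells the median was 0.58, with 45 of 47 positive, beside 49.7% of all genes. By edgeR's test 3 rose, beside 2.17% of all genes, and DESeq2 called 10 higher, beside 6.05%. These 3 were Ccna2, which encodes cyclin A (log2 fold change 1.40, SE 0.19, adjusted p = 0.0137), Dut, the enzyme that clears dUTP (log2 fold change 1.11, SE 0.17, adjusted p = 0.0180), and Slbp, which binds histone mRNA (log2 fold change 0.81, SE 0.17, adjusted p = 0.0419).

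By edgeR's test, 7 of 32 genes of G2 and mitosis rose in wild-type CMP relative to wild-type LSK, beside 2.17% of all genes. In CMP, enhancer-null over wild type, 31 of the 32 were negative, beside 51.2% of all genes, with a median log2 fold change of −0.79. None passed edgeR's test, and 16 had an unadjusted p under 0.05, beside 12.6% of all genes. DESeq2 called 6 lower, beside 1.91%. Cdk1, the kinase that starts mitosis, had the smallest p there, at 93.2 ± 11.7 CPM in enhancer-null CMP, against 191 ± 12.3 CPM in wild-type CMP (log2 fold change −1.02, SE 0.20, adjusted p = 0.0795). In LSK 25 of the 32 were negative, beside 50.7% of all genes, with a median of −0.43. None passed edgeR's test, 5 had an unadjusted p under 0.05, beside 7.92% of all genes, and DESeq2 called 1 lower, beside 1.16%. The difference between genotype effects had a median of −0.23 with 22 negative, beside 49.4% of all genes. None passed edgeR's test, and 2 had an unadjusted p under 0.05, beside 7.63%. DESeq2 called 0, beside 0.914% higher and 0.552% lower. CMP over LSK, the median was 0.90 in enhancer-null cells, where 0 passed edgeR's test. There 15 had an unadjusted p under 0.05, beside 6.92%, and DESeq2 called 3 higher, beside 0.923%. In wild-type cells the median was 1.17, and among the 7 that rose was Mki67, which encodes the proliferation marker Ki-67, at 694 ± 48.1 CPM in CMP and 339 ± 60.4 CPM in LSK (SD, n = 3 each; log2 fold change 1.09, SE 0.16, adjusted p = 0.0176). Ube2c (log2 fold change 1.43, SE 0.23, adjusted p = 0.0200), Plk1 (log2 fold change 1.81, SE 0.28, adjusted p = 0.0200) and Ccnb1 (log2 fold change 1.18, SE 0.20, adjusted p = 0.0234), which act in mitotic entry and exit, also rose.

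Summed markers of other cell types are given here for the same groups. The 10 erythroid markers summed to 920 to 2798 CPM in enhancer-null CMP, against 1947 to 2026 in wild-type CMP, and 221 to 296 in enhancer-null LSK, against 123 to 208 in wild-type LSK, with 8 of the 10 at a mean of at least 1 CPM in each group. Hba-a1 had 0 counts in all 12 libraries, and Hbb-b1 had counts in wild-type CMP 6 alone. That library is also the one whose file used another list of symbols. Both globin genes have near-identical copies, so their counts are uncertain. The erythroid sum is thus higher in CMP than in LSK in both genotypes, and its part in the replication genes' difference was not tested. Mast cell and basophil markers summed to 1400 to 1765 CPM in enhancer-null CMP, against 57.8 to 262 in wild-type CMP, and 322 to 678 in enhancer-null LSK, against 7.76 to 20.1 in wild-type LSK. Of these 8 markers 6 reached 1 CPM in enhancer-null CMP, where Prss34 and Tpsb2 were at 0 and Cpa3 and Gzmb made up most of the sum. The 8 markers of late neutrophils counted here summed to 3.81 to 27.2 CPM in enhancer-null CMP, against 25.9 to 2099 in wild-type CMP, and 7.22 to 26.8 in enhancer-null LSK, against 125 to 1346 in wild-type LSK. T and NK cell markers summed to 250 to 479 CPM in enhancer-null CMP, against 76.7 to 162 in wild-type CMP, and 355 to 413 in enhancer-null LSK, against 167 to 226 in wild-type LSK, mostly from Nkg7 and Lck. Cd3e was at 0 in enhancer-null CMP and Cd3d in enhancer-null LSK. The 8 B cell markers summed to 29.2 to 75.2 CPM in enhancer-null CMP, against 26.6 to 135 in wild-type CMP, and 42.5 to 55.8 in enhancer-null LSK, against 48.4 to 87.1 in wild-type LSK, with Pax5 and Ms4a1 at 0 in all enhancer-null libraries. The part of these lists in the lower replication genes of enhancer-null CMP was not tested.

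The 12 LSK markers summed to 939 to 1362 CPM in enhancer-null CMP, against 1629 to 1861 in wild-type CMP, and 2601 to 2963 in enhancer-null LSK, against 4197 to 4548 in wild-type LSK. The 10 CMP markers, Cebpa and Mpo among them, summed to 3850 to 4622 CPM in enhancer-null CMP, against 5891 to 6807 in wild-type CMP. In LSK they summed to 3201 to 4286 CPM in enhancer-null and 2409 to 2873 in wild-type libraries. The summed LSK markers thus separate LSK from CMP in both genotypes. The summed CMP markers do so in wild-type cells and overlap between enhancer-null CMP and LSK. Kit and Cd34 are on both lists. The LSK list also holds Ly6a, whose product Sca-1 defines the sorted LSK cells, and the CMP list holds Cebpa, whose enhancer was deleted. These sums are therefore not independent of the sort or of the deletion. Both sums were lower in enhancer-null than in wild-type CMP without overlap.

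Within a group, single libraries held most of the lowest values. Enhancer-null CMP 1 had the lowest value of its group for 26 of the 42 genes, beside 48.6% of all genes tested, and CMP 2 for 3, beside 21.3%. Enhancer-null LSK 1 was lowest for 33, beside 43.3%, and wild-type LSK 6 for 27, beside 48.1%. The wild-type CMP libraries were lowest for 16, 9 and 17, beside 28.9%, 23.9% and 47.2%. The summed level ran from 5343 to 7649 CPM over the enhancer-null CMP libraries and from 9117 to 10149 CPM over the wild-type CMP libraries, which do not overlap. In LSK it ran from 3939 to 6209 CPM in enhancer-null and from 4741 to 6319 CPM in wild-type libraries.

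**Figure D5:**
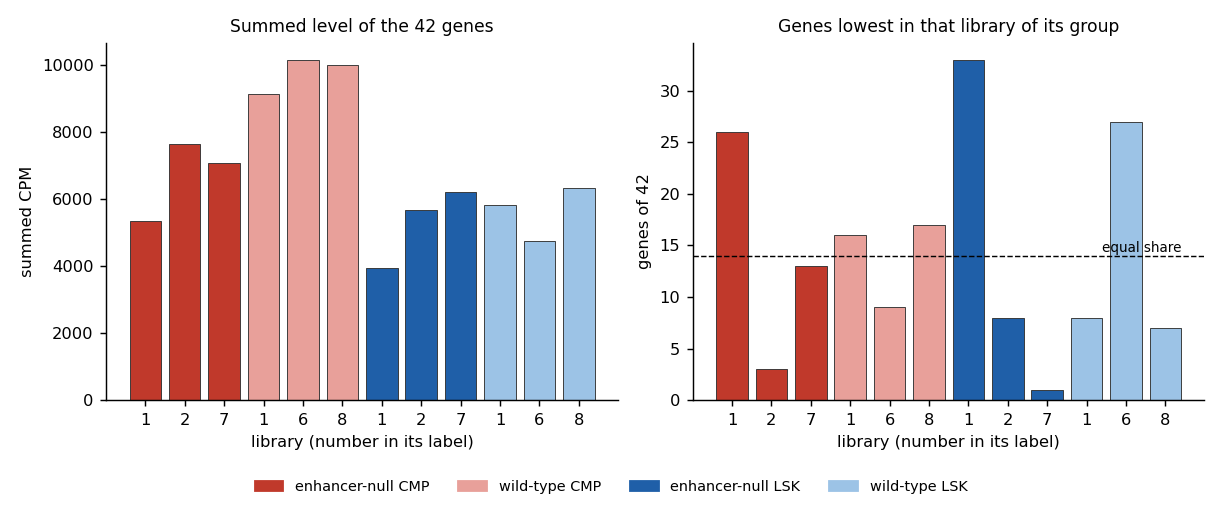
Summed level of the 42 genes in CPM (left) and number of the 42 genes whose lowest value within the group falls in that library (right), for each of the 12 libraries by the number in its label; the dashed line is an equal share of the genes. The wild-type CMP libraries are highest at 9117 to 10149 CPM. Enhancer-null CMP 1, enhancer-null LSK 1 and wild-type LSK 6 hold the lowest values of their groups for 26, 33 and 27 genes. Over all genes tested, these libraries were lowest for 48.6%, 43.3% and 48.1%, so the equal share is not the share over all genes.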

How the data were processed

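RNA was extracted with Trizol and a carrier, amplified with the SMARTer Ultra Low kit, made into TruSeq libraries and read as paired ends of 75 bp, per the labels' protocols. The authors deposited raw counts per gene symbol for each library; the submitters' processing notes name TopHat, TopHat2 2.0.4, Bowtie, HTSeq and the mm10 build, with no roles. Which annotation, counting mode or strand setting was used is not given in the sources used here. Rows that name no gene held 37.2% to 46.9% of the deposited counts and were left out. The file of wild-type CMP 6 listed 23456 symbols and the other 11 listed 24420. That library also had the highest share in rows that name no gene, 46.9%. Together, 22779 identical symbols and 611 linked through older names gave 23390 genes. Of gene counts, 0.0674% to 0.291% were not joined. A floor of 3 counts stood for 0.0610 to 0.486 CPM.

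Groups and replicate numbers came from the labels. Each comparison was fitted on the counts of its own 2 groups (all 4 for the difference between genotype effects) with edgeR 4.0.16 (limma 3.58.1, R 4.3.3): filterByExpr with a minimum count of 10, TMM scaling, the quasi-likelihood test and Benjamini-Hochberg adjustment over all genes tested at a threshold of 0.05. The biological coefficient of variation was 0.719 to 0.823, and replicates differed by far more than sampling noise (chi-square per degree of freedom 43.05 to 182.8). The fitting was also run on simulated counts with known changes, at a lower coefficient of variation than these data show. Its pass criterion was the median recovered fold change, so it gives no error rate or power for these data. Levels are TMM-scaled CPM, divided by the principal GENCODE vM21 transcript in kilobases where compared between genes. DESeq2 1.42.0, other scalings, no filter, sex as a covariate, 1 fit over 12 libraries, the replicate block and leaving out each library were the alternatives.

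Same-numbered CMP and LSK libraries did not deviate together over 10190 genes (r of 0.0608, −0.0366 and 0.0276 in enhancer-null and 0.123, −0.0573 and 0.0413 in wild-type pairs), so they were not treated as paired. Given with full statistics in each comparison were the members past the test and the member of each role with the smallest p (in the other lists up to 4 genes past the test, or the one with the smallest p). Other members are given for completeness. The 42 genes and all lists were chosen with earlier results of these data known, so their counts and medians are descriptions.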

Additional observations from a re-analysis of the deposited data

How the results depend on the processing

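In CMP, enhancer-null over wild type, 2 of the 42 genes passed with no filter on low counts (Mcm5 and Pold2) and 5 with DESeq2. In a single fit over the 12 libraries 1 passed (Pold2), against 0 in the main edgeR fit. All genes past the test were 270, 629 and 232 in these settings, against 69. Of the 42, 0 passed without any single library. CMP over LSK in enhancer-null cells, DESeq2 called 1 of the 42 (Ccne1) and 205 of all genes. There 3 to 12 of the 42 genes were negative without 1 library, against 6 with all. In wild-type cells 19 passed with DESeq2 and 3 with the replicate block, 1 to 14 passed and 0 to 2 were negative without 1 library, against 9 and 1 with all. With sex as a covariate 6 passed. All genes past the test were 1609 with DESeq2, 132 with the replicate block and 285 with sex as a covariate, against 509. No paired analysis was possible for the genotype comparisons because they share only the number 1. The search for E2F letters before the start alone found 8 genes, against 13.

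No called direction turned under any alternative run. Of the values of named genes, 429 stayed on their side of the threshold, 9 came past it and 56 no longer passed. Genes that never passed are among the 429, and all 56 belong to the 9 genes that rose in wild-type CMP. Of the 14 alternatives there, Rrm2 passed in 14, Fen1 in 12, Rrm1 in 10 and Mcm7 in 8. Orc2 and Tk1 passed in 7 each, Cdt1 in 5, Ccne1 in 4 and Ccne2 in 3. All genes past the test were 31 to 629 (DESeq2), and 7 to 92 without 1 library, in CMP, against 69; 3 to 270 and 1 to 21 in LSK, against 12. CMP over LSK they were 0 to 205 in enhancer-null cells, against 0, and 132 to 1609, and 56 to 880 without 1 library, in wild-type cells, against 509. For the difference between genotype effects they were 7 to 186, and 12 to 107 without 1 library, against 37. With no filter the median of all genes shifted to −0.38 in CMP, −0.11 in LSK, 0.26 in wild-type CMP over LSK and −0.25 for the difference between genotype effects; there the median of the 42 genes was −0.66, −0.17, 0.81 and −0.54. The 3 libraries a group limit the precision of every difference.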

Other observations

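Of 15 genes linked to rest from the cell cycle, 2 fell in wild-type CMP relative to wild-type LSK by edgeR's test. Of all genes 2.06% were lower by that test, and DESeq2 called 4 of the 15 lower, beside 7.32%. Zfp36, which promotes decay of short-lived mRNAs, fell to 366 ± 132 CPM in wild-type CMP, against 1177 ± 294 CPM in wild-type LSK (SD, n = 3 each; log2 fold change −1.63, SE 0.28, adjusted p = 0.0247). Btg2, an antiproliferative gene, fell to 115 ± 23.5 CPM, against 300.4 ± 86.2 CPM in wild-type LSK (log2 fold change −1.33, SE 0.25, adjusted p = 0.0337). The median of the 15 genes was −0.04 in enhancer-null CMP over enhancer-null LSK, where 9 were negative, beside 50.6% of all genes. None passed edgeR's test there, 1 had an unadjusted p under 0.05, beside 6.92%, and DESeq2 called 1 lower, beside 0.896%. The median was −1.06 in wild-type CMP over wild-type LSK, with 12 negative, beside 50.3% of all genes, and 3 positive.

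In CMP, enhancer-null over wild type, the median was 1.06 with 12 of 15 positive, beside 48.8% of all genes. None passed edgeR's test, 8 had an unadjusted p under 0.05, beside 12.6% of all genes, and DESeq2 called 5 higher, beside 3.45%. Btg1, a paralog of Btg2, measured 517 ± 135 CPM in enhancer-null CMP, against 136 ± 50.7 CPM in wild-type CMP (log2 fold change 1.94, SE 0.32, adjusted p = 0.0524). In LSK the median was 0.29. None passed edgeR's test, 2 had an unadjusted p under 0.05, beside 7.92% of all genes, and DESeq2 called 1 higher, beside 1.16%. For the difference between genotype effects the median was 0.87 with 12 of 15 positive, beside 50.6% of all genes. None passed edgeR's test, 3 had an unadjusted p under 0.05, beside 7.63%, and DESeq2 called 1 higher, beside 0.914%.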
